A study of Mus musculus with 4 samples.

Results

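Hepatokines are hormones and other signalling proteins that the liver releases into the blood. The transcripts of 9 of them, Fgf21, Inhbe, Inhbc, Inhba, Gdf15, Lect2, Fetub, Rbp4 and the activin antagonist Fst, were examined in fasted and refed mouse liver. The 9 genes, and the lists of related genes below, were chosen with earlier results of these data known. Shares over all kept probes are therefore given beside their counts as a description and not as a test. Every non-control spot that carried one of the 9 names was taken, and these names make up 9 of 31829 gene names on the array. Each gene had 1 probe on 1 spot, all 9 probes passed the filter on dim probes, and none of their spots was saturated or flagged on any array. The mice were C57BL/6J males, 8 to 12 weeks old. Fasted mice had been without food for 24 h, and refed mice had gone through the same 24 h fast and then had food for 2 h, so that both groups had been fasted and neither was fed freely throughout. RNA of 4 fasted and 4 refed livers was compared on 4 two-colour arrays, and every array, referred to as a replicate (n = 4), held a random pair of 1 fasted and 1 refed liver. Fasted livers carried the red dye Cy5 on replicates 1 and 2 and the green dye Cy3 on replicates 3 and 4. Ratios are given on the log2 scale as fasted over refed, and levels are log2 normalized intensities of the single livers. A probe was called where its Benjamini-Hochberg adjusted p in limma was under 0.10 and its change was at least 1.5-fold.

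FGF21 is a hormone that hepatocytes make under control of the fatty acid receptor PPARA during a fast and of ATF4 during amino acid shortage and stress, and it acts through FGF receptors together with the co-receptor beta-klotho. Activins are dimers of inhibin beta chains, of which Inhba encodes the chain of activin A, Inhbc that of activin C and Inhbe that of activin E, and follistatin, the product of Fst, binds and neutralises activin A outside the cell. GDF15 is a stress hormone that signals to the brain stem, LECT2 is a secreted protein first known as a chemotactic factor, fetuin-B is an inhibitor of a protease of the egg, and RBP4 carries retinol from the liver to other tissues.

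All 8 hepatocyte markers examined, among them Alb and Hnf4a, were well above background in all 8 channels, as the label of the tissue requires. Median spot signals were 40 to 75 in the red and 44 to 96 in the green channel, over median local backgrounds of 25 to 35 and 20 to 32.5. The refed liver of replicate 3 stood apart in 8 pancreatic acinar markers, whose summed intensity reached 30038 in it, while the 4 fasted livers lay between 1523 and 2306. Over all 8 of these markers, whether kept or not, the median ratio on replicate 3 was −3.37, and on the other replicates it lay between −0.03 and 0.03. Haemoglobin alpha (Hba-a1) had ratios of 2.45 and 2.48 on replicates 1 and 3, against −0.26 and 0.34 on replicates 2 and 4. Of the hepatocyte markers, Tat was called higher in fasted liver (0.84, adjusted p = 0.0451), and the median ratio of the 8 was 0.22, between 0.22 and 0.38 on the single arrays. Single markers of other cell types also had strongly negative ratios on replicate 3 alone. These were Lyve1 of endothelium (−1.26), Krt19 of cholangiocytes (−1.19) and Cfd of adipose tissue (−1.37). None of the kept markers of stellate cells, endothelium, Kupffer cells, cholangiocytes, acinar cells, adipose tissue, lymphocytes or red blood cells was called. For the hepatokines and the genes of the lists, values are given below without each replicate that ended a call, and the part of these other cells in them was otherwise not tested.

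The upstream sequences of Fgf21, Inhbe and Inhba are shown because these hormone genes were called and an entry for them was found in the promoter table of RefSeq (GRCm38.p6). Each is the 250 bases before the annotated start of the transcript, 5′ to 3′ on the gene's own strand, at chr7:45615491-45615740 (minus strand) for Fgf21, chr10:127351849-127352098 (minus strand) for Inhbe and chr13:16011601-16011850 (plus strand) for Inhba. Capitals mark matches to the motifs searched.
Fgf21: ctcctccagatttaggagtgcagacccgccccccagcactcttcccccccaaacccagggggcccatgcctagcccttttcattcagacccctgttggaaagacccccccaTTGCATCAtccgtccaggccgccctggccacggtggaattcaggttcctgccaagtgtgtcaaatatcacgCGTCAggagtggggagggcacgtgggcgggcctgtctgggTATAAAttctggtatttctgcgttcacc
Inhbe: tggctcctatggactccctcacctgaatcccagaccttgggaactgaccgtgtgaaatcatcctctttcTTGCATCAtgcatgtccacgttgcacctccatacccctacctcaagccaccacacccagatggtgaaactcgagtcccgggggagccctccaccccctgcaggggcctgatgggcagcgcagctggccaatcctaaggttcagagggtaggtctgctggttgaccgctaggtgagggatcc
Inhba: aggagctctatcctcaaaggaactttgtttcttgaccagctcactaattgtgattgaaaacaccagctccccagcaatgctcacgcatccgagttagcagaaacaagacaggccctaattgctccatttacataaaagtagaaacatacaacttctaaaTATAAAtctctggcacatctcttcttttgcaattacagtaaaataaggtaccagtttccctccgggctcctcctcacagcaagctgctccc

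Motifs were searched on both strands. They were the cAMP response element TGACGTCA, its half-site TGACG, which is part of the full element, the C/EBP-ATF response element (CARE) TGATGNAA, where N is any base, and the TATA box TATAAA. Fgf21 and Inhbe carried the same CARE letters on the strand opposite to the printed one, so that they appear as TTGCATCA, with the first printed base 139 bases before the start in Fgf21 and 181 bases before it in Inhbe. Among the other members with a promoter entry, Rbp4 held one, TGATGAAA, 76 bases before 1 of its 2 annotated starts. Fst had no entry and was not searched. Of 32851 promoters of the table, 3.45% held a CARE in the same 250 bases. Fgf21 also had a half-site 68 bases before the start, also on the opposite strand and printed as CGTCA, and a TATA box 28 bases before it. Anywhere in the 250 bases and on either strand, 17.8% of all promoters held a half-site and 12.4% the TATA letters. Inhba had the TATA letters 91 bases before the start, farther from it than in Fgf21. Fetub and Rbp4, which were not called, also held a half-site and the TATA letters, the latter 31 and 28 bases before a start. The full cAMP response element, which 1.55% of all promoters held, was not among the letters of these 3 windows. Each match is a description of letters and not of a bound site.

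Of the 9 hepatokine transcripts, Fgf21 and Fst were higher and Inhba and Inhbe lower in fasted liver, and the other 5 were not called. Fgf21 was 2.16-fold and Fst 2.10-fold higher in fasted liver, whereas Inhba was 1.92-fold and Inhbe 1.71-fold higher in refed liver. The raw spot signals of Fgf21, Fst and Inhba went down to 95.5, 100 and 97, and the size of their ratios depended on the background correction. With plain background subtraction their log2 ratios were 1.42, 1.47 and −1.18, in place of 1.11, 1.07 and −0.94. Among all 19721 kept probes, 1.7% were called higher and 2.08% called lower, 3.78% in all. The ratio had one sign on all 4 arrays for 2 members that were higher and 4 that were lower, against 13.6% and 16% of all kept probes, and 3 members had mixed signs. The median ratio was −0.39 over the 9 members and −0.001 over all kept probes. In bulk liver, fewer cells of a type and less RNA per cell cannot be told apart, and the precision of each value is limited by there being only 4 arrays. When the background model was fitted to all spots, including 55 spots with an extreme local background, 0 members and 5 higher and 15 lower probes of the whole array were called.

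**Figure D1:**
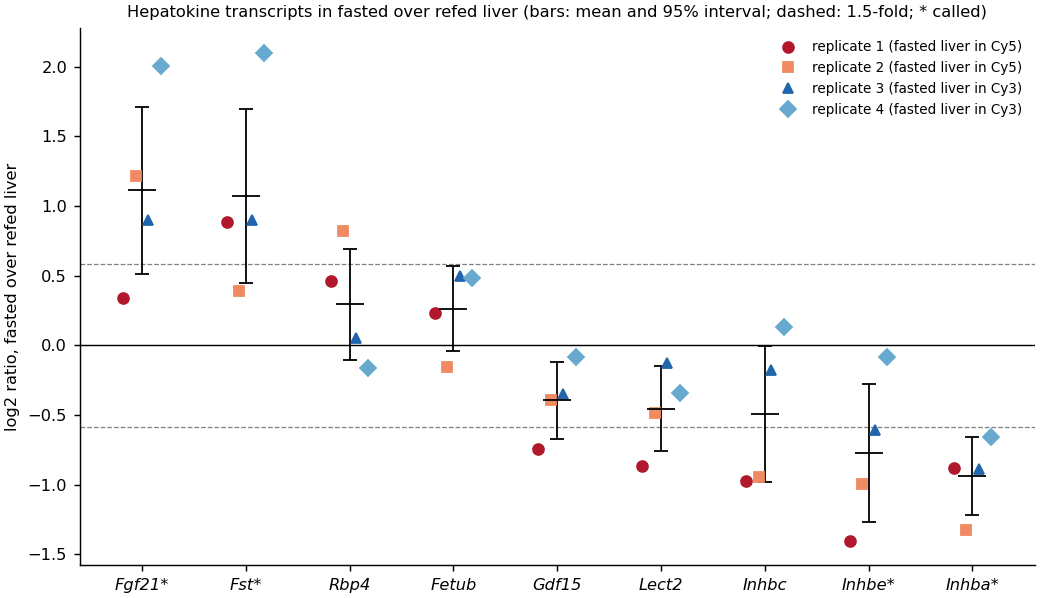
Log2 ratio of fasted over refed liver (vertical axis) for each of the 9 transcripts on the 4 arrays, with the mean and its 95% interval in black; marker colour and shape give the replicate and the dye of the fasted liver, dashed lines mark a 1.5-fold change and asterisks mark called genes. The 4 Inhba ratios all lie past the lower dashed line, whereas Fgf21 and Fst each have 1 array short of the upper line and their highest value on replicate 4.

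**Figure D2:**
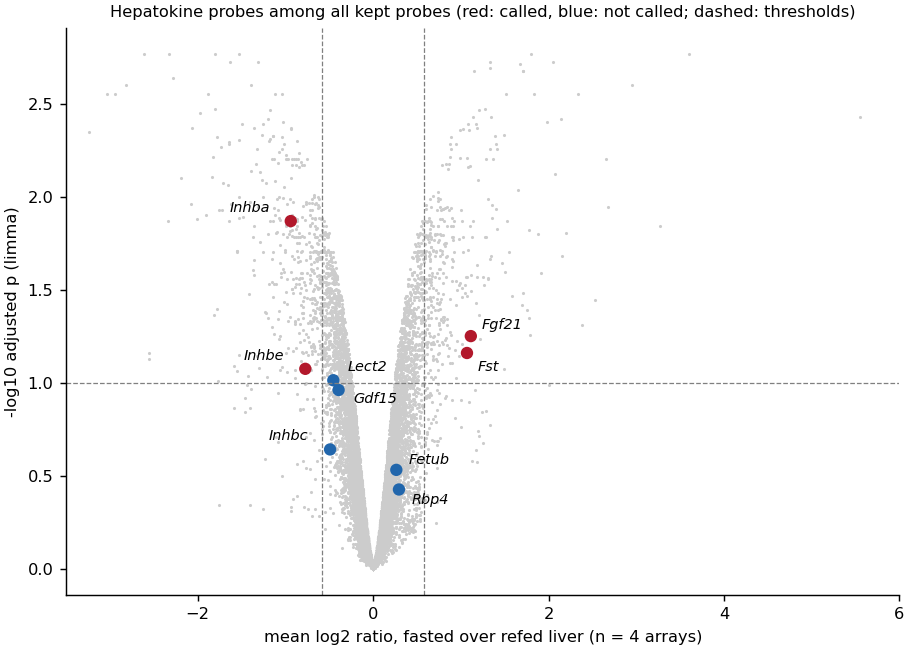
Mean log2 ratio of fasted over refed liver (horizontal axis, n = 4 arrays) against −log10 of the adjusted p in limma (vertical axis) for all 19721 kept probes in grey, with called hepatokine probes in red and the others in blue. Dashed lines mark the limits of the calls, and Inhba has the highest position of the 9.

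The Fgf21 probe lay on the minus strand at chr7:52869305-52869364 (mm9). Levels of Fgf21 in the fasted livers were 7.66, 8.76, 8.06 and 9.16 on replicates 1 to 4, and those in the refed livers 7.32, 7.54, 7.16 and 7.16. All fasted livers were above all refed livers, by 0.12 between the nearest values, as for 5.81% of all kept probes. The fasted livers spread far more widely than the refed ones, with an SD of 0.67 against 0.18, and 0.943% of kept probes had a larger SD among fasted livers (the median SDs over all kept probes were 0.14 and 0.15). The liver of replicate 1 was near the refed range and that of replicate 4 far above it. The ratios were 0.34, 1.21, 0.90 and 2.00, with a mean of 1.11 ± 0.69 (SD, n = 4, 95% interval 0.52 to 1.71, limma, adjusted p = 0.0559). This placed Fgf21 at rank 88 among the kept probes from the highest ratio. The mean was 1.08 without replicate 2 and 1.19 without replicate 3, and the call was lost in both (limma, adjusted p = 0.169 and 0.152).

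**Figure D3:**
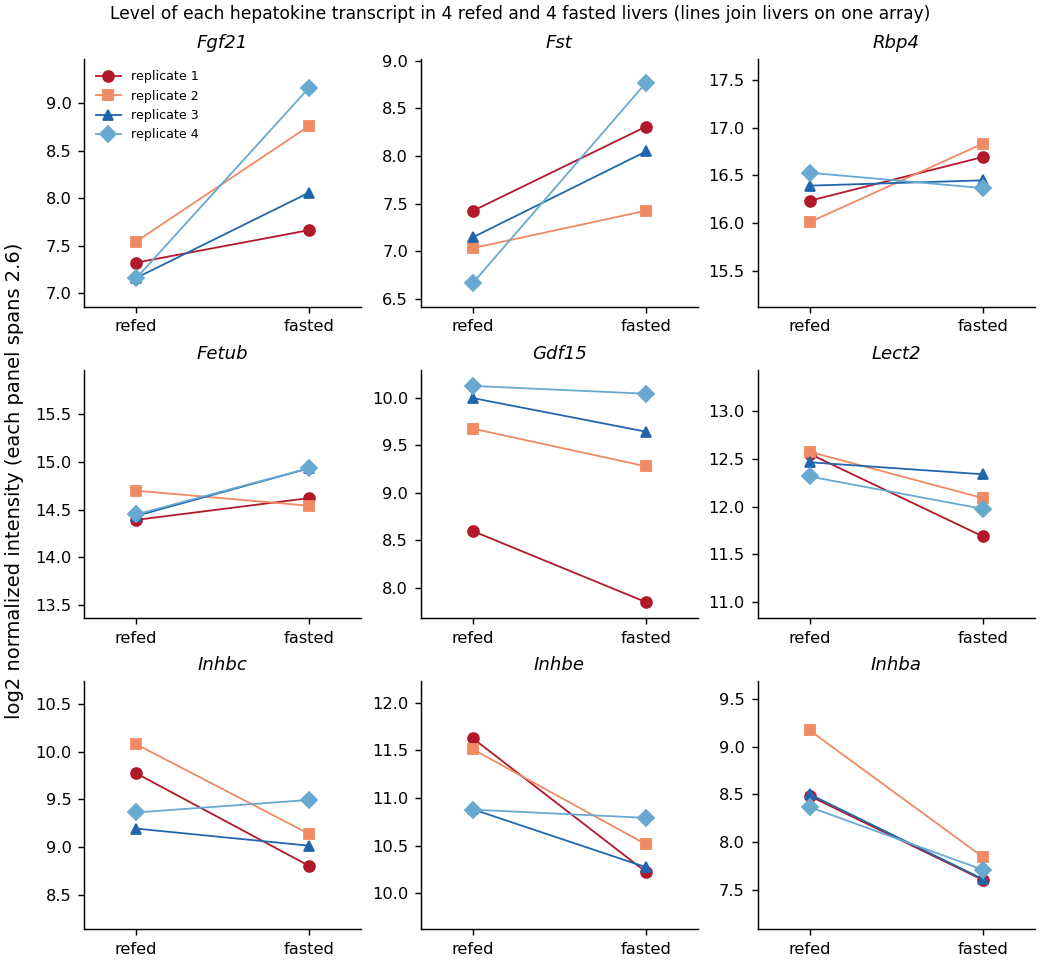
Log2 normalized intensity (vertical axis, each panel spanning the same width) of the 9 transcripts in the 4 refed and 4 fasted livers, with a line joining the livers that shared an array. The fasted livers fan out for Fgf21 and Fst, close up for Inhba, and the 4 arrays stay apart in both conditions for Gdf15.

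Receptors of FGF21 were examined beside the hormone. The co-receptor beta-klotho (Klb) had a mean ratio of 0.14 and Fgfr1, the main FGF21 receptor of adipose tissue, one of 0.04, and neither was called. Fgfr4, the FGF receptor typical of hepatocytes, had a ratio of −0.33 (limma, adjusted p = 0.0966), which missed the fold limit. Of 18 receptors, co-receptors and carriers of FGF21, GDF15, LECT2 and RBP4, 12 were kept and 0 were called in either direction, beside 3.78% of all kept probes, with a median ratio of −0.06. At an adjusted p under 0.10 in limma without the fold limit, which 10.9% of all kept probes passed, the 12 included Fgfr3 at −0.53 (adjusted p = 0.0164), named after its value was seen, besides Fgfr4. The second kept probes of Fgfr3, at −0.10 (adjusted p = 0.473), and of Fgfr4, at −0.21 (adjusted p = 0.176), did not pass.

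PPARA drives the fasting programme of fatty acid oxidation and ketone body synthesis to which Fgf21 belongs. All 16 genes of the PPARA list were kept, of which 6 were called higher and 0 lower in fasted liver, beside 1.7% and 2.08% of all kept probes, with a median ratio of 0.60. The number called higher depended on single arrays, at 11 without replicate 1, 2 without replicate 2, 3 without replicate 3 and 3 without replicate 4. Pdk4, a kinase that shuts off pyruvate oxidation, had ratios of 0.54, 0.60, 1.98 and 2.86 and a mean of 1.49 (limma, adjusted p = 0.0837). Its highest ratio, like those of Fgf21 and Fst, was on replicate 4, and its call was lost without replicate 2 (mean 1.79, adjusted p = 0.123), without replicate 3 (1.33, adjusted p = 0.254) and without replicate 4 (1.04, adjusted p = 0.165). The co-activator gene Ppargc1a was 1.20 higher on the log2 scale by its brightest probe (adjusted p = 0.00338), whereas its second kept probe, at 0.45 (adjusted p = 0.0418), missed the fold limit. Cpt1a, which admits fatty acids into mitochondria, was 0.78 higher (adjusted p = 0.0195), with both of its kept probes called, and the lipid droplet coat gene Plin2 was 0.63 higher (adjusted p = 0.0431). Ppargc1a and Cpt1a remained called without any one replicate, and Plin2 lost its call without replicate 2 (0.53, adjusted p = 0.138), replicate 3 (0.64, adjusted p = 0.150) or replicate 4 (0.57, adjusted p = 0.144). The regulators Ppara, at 0.51 (adjusted p = 0.177), and Creb3l3, at 0.36 (adjusted p = 0.223), were not called. By the brightest of its 3 kept probes, Ppara had its lowest ratio, −0.10, on replicate 1, as Fgf21 did. Its highest ratio was on replicate 2, whereas that of Fgf21 was on replicate 4, where Ppara was at 0.82. A link between the 2 genes was not tested.

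ATF4 is the regulator of the amino acid and stress response that acts through the CARE. Of 20 genes of the ATF4 list 17 were kept, and 1 was called higher and 2 lower, beside 1.7% and 2.08% of all kept probes, with a median ratio of 0.12. Ddit3, which encodes the stress factor CHOP, was lower in fasted liver on every array, with ratios of −1.61, −2.02, −1.82 and −1.78 and a mean of −1.81 ± 0.17 (SD, n = 4, limma, adjusted p = 0.00170). Nupr1, a stress-induced chromatin protein, was also lower, at a mean of −0.997 (adjusted p = 0.0690), with a ratio of −0.01 on replicate 1 and −1.54 to −1.16 on the other arrays. The pseudokinase gene Trib3 was higher, at 0.75 (adjusted p = 0.0690). Ddit3 remained called without any one replicate. Nupr1 lost its call without replicate 2 (−0.91, adjusted p = 0.204), replicate 3 (−0.82, adjusted p = 0.220) or replicate 4 (−0.94, adjusted p = 0.196), and Trib3 without replicate 1 (0.54, adjusted p = 0.0971), replicate 2 (0.80, adjusted p = 0.162) or replicate 3 (0.73, adjusted p = 0.216). Atf4 itself had a ratio of −0.36 and was not called (adjusted p = 0.137).

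Among the activin subunits, Inhba was lower in fasted liver, with the smallest adjusted p of the 9 hepatokines. Its probe lay on the plus strand at chr13:16118634-16118693 (mm9). Levels of Inhba in the fasted livers were 7.60, 7.85, 7.61 and 7.71, and those in the refed livers 8.48, 9.17, 8.50 and 8.37. All fasted livers were below all refed livers by at least 0.52, a separation in the direction that 7.78% of kept probes showed. The spread ran opposite to that of Fgf21, with an SD of 0.11 among fasted and 0.37 among refed livers, the latter set by the refed liver of replicate 2. The ratios were −0.88, −1.33, −0.89 and −0.66, with a mean of −0.94 ± 0.28 (SD, n = 4, 95% interval −1.22 to −0.66, limma, adjusted p = 0.0135). Inhba was past 1.5-fold on all 4 arrays and remained called without any one of them, with means between −1.03 and −0.81.

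Inhbe and Inhbc are neighbours on chromosome 10, and their probes lay on the minus strand at chr10:126786719-126786778 and chr10:126793865-126793924 (mm9). Levels of Inhbe in the fasted livers were 10.22, 10.51, 10.27 and 10.79, and those in the refed livers 11.63, 11.51, 10.88 and 10.88. The groups did not overlap but came within 0.09 of each other, both nearest values being from replicate 4. The ratios were −1.40, −0.998, −0.61 and −0.09, with a mean of −0.77 ± 0.56 (SD, n = 4, 95% interval −1.27 to −0.28, limma, adjusted p = 0.0838). Inhbe was lower in fasted liver on 4 of 4 arrays. The call was lost without replicate 1 (mean −0.56, adjusted p = 0.155), without replicate 2 (−0.70, adjusted p = 0.232) and without replicate 3 (−0.83, adjusted p = 0.205), and it was kept without replicate 4, at −1.002. Without the filter on dim probes the same ratio had an adjusted p of 0.135.

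Levels of Inhbc in the fasted livers were 8.80, 9.14, 9.01 and 9.49, and those in the refed livers 9.77, 10.08, 9.19 and 9.36. The groups overlapped, and the ratio was positive on replicate 4. The ratios were −0.97, −0.94, −0.18 and 0.13, with a mean of −0.49 ± 0.55 (SD, n = 4, 95% interval −0.98 to −0.004, limma, adjusted p = 0.228), and Inhbc was not called. Its mean ran from −0.70 to −0.33 as single replicates were left out. The 2 arrays with the fasted liver in Cy5 had the lower ratios for Inhbe and for Inhbc alike. The mean ratio of Inhbe was −1.20 on these and −0.35 on the arrays with the fasted liver in Cy3, and that of Inhbc was −0.96 and −0.02.

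A dye effect is the amount by which a ratio is raised where the fasted liver carries Cy5 and lowered where it carries Cy3. It had an adjusted p under 0.10 in limma for 3 of the 9 members, Inhbe (−0.43, adjusted p = 0.0772), Inhbc (−0.47, adjusted p = 0.0337) and Rbp4 (0.35, adjusted p = 0.0651), and for 14.8% of all kept probes. Since each dye orientation held 2 arrays, the dye cancels in the mean of 4. With a dye term in the fit the same 4 members were called, and the adjusted p of Inhbc was 0.00921 at the same mean, which stayed short of 1.5-fold. All 9 members then had an adjusted p under 0.10, as did 26.1% of all kept probes. Without the term 5 members did, against 10.9%.

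The activin antagonist Fst was higher in fasted liver, opposite in direction to Inhba and Inhbe. The Fst probe lay on the minus strand at chr13:115243565-115243624 (mm9). Levels of Fst in the fasted livers were 8.31, 7.42, 8.05 and 8.77, and those in the refed livers 7.42, 7.03, 7.15 and 6.67. The lowest fasted liver, of replicate 2, and the highest refed liver, of replicate 1, differed by only 0.002, so that the groups met without overlapping. The ratios were 0.88, 0.39, 0.90 and 2.10, with a mean of 1.07 ± 0.73 (SD, n = 4, 95% interval 0.44 to 1.69, limma, adjusted p = 0.0689), at rank 98 from the highest. The mean was 1.13 without replicate 1 and 1.13 without replicate 3, and neither kept the call (adjusted p = 0.120 and 0.182). Without the filter on dim probes the adjusted p was 0.112.

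None of the other genes examined in activin signalling was called. Of 18 genes of the activin, follistatin and receptor list 14 were kept, and 0 called among these is near the 3.78% of all kept probes. Their median ratio was 0.10. Their mean ratios ran from −0.42 to 0.42. The type II receptor gene Acvr2b had ratios between 0.17 and 0.64 and a mean of 0.42 (limma, adjusted p = 0.0684), short of 1.5-fold, and Acvr2a had a mean of −0.02 (adjusted p = 0.929). Acvr1c, the type I receptor ALK7, did not pass the filter on dim probes. At the lower end, Acvr1, another type I receptor gene, named after its value was seen, had a mean of −0.42 (adjusted p = 0.0442) by its brightest probe and −0.27 (adjusted p = 0.168) by its second. With Smad7, an inhibitor of the pathway, also named after its value was seen, at −0.34 (adjusted p = 0.0849), 3 of the 14 had an adjusted p under 0.10, beside 10.9% of all kept probes.

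**Figure D4:**
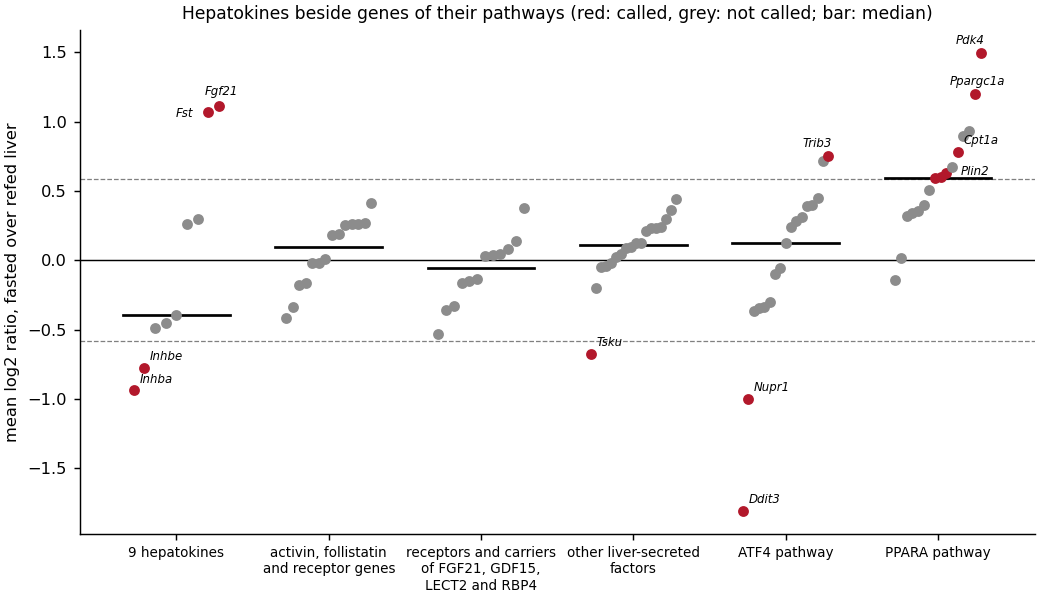
Mean log2 ratio of fasted over refed liver (vertical axis) for the 9 hepatokines and for each kept gene of 5 lists of related genes, called genes in red with the names of up to 4 in each group, other genes in grey, list medians as black bars and dashed lines at 1.5-fold. Called genes stand on both sides of 0 among the hepatokines and the ATF4 genes and above 0 for the PPARA genes, and the 2 receptor lists hold none.

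Gdf15 stood out by its spread between arrays. Its probe lay on the minus strand at chr8:73153293-73153352 (mm9). Levels of Gdf15 in the fasted livers were 7.85, 9.28, 9.64 and 10.04, and those in the refed livers 8.60, 9.67, 9.99 and 10.12. Both livers of an array were high or low together, replicate 1 being lowest and replicate 4 highest in either condition. The SD of the array means was 0.82, and 0.294% of kept probes had a larger one. Whether the array or the animals set these levels was not tested. Within arrays the ratios were closer, at −0.75, −0.40, −0.35 and −0.08, with a mean of −0.39 ± 0.27 (SD, n = 4, 95% interval −0.67 to −0.12, limma, adjusted p = 0.109). Gdf15 was lower in fasted liver on 4 of 4 arrays and was not called.

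Lect2 was likewise lower on 4 of 4 arrays. Its probe lay on the minus strand at chr13:56643829-56643888 (mm9). Levels of Lect2 in the fasted livers were 11.69, 12.09, 12.34 and 11.98, and those in the refed livers 12.55, 12.58, 12.47 and 12.32. The groups overlapped by 0.02, between the fasted liver of replicate 3 and the refed liver of replicate 4. The ratios were −0.87, −0.49, −0.13 and −0.34, with a mean of −0.45 ± 0.31 (SD, n = 4, 95% interval −0.76 to −0.15, limma, adjusted p = 0.0966). This passed the limit on the adjusted p and missed that on the fold. With median centring in place of loess the mean was −0.60 (adjusted p = 0.0781) and Lect2 was called.

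Fetub and Rbp4 encode abundant plasma proteins, and neither was called. The Fetub probe lay on the plus strand at chr16:22939736-22939795 (mm9). Levels of Fetub in the fasted livers were 14.62, 14.54, 14.94 and 14.94, and those in the refed livers 14.39, 14.70, 14.43 and 14.45. The refed liver of replicate 2 was above the fasted livers of replicates 1 and 2, and the ratios were 0.23, −0.16, 0.50 and 0.49, with a mean of 0.26 ± 0.31 (SD, n = 4, 95% interval −0.04 to 0.57, limma, adjusted p = 0.293). The mean was 0.41 without replicate 2 and between 0.19 and 0.28 without any other. The related liver protein fetuin-A, from Ahsg, had a mean ratio of 0.21 and was not called (adjusted p = 0.430).

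The Rbp4 probe lay on the minus strand at chr19:38191120-38191179 (mm9). Levels of Rbp4 in the fasted livers were 16.69, 16.83, 16.45 and 16.37, and those in the refed livers 16.23, 16.01, 16.39 and 16.53. The array means were close to each other, with an SD of 0.02, and 98.7% of kept probes had a larger one. The ratios were 0.46, 0.82, 0.06 and −0.16, with a mean of 0.29 ± 0.44 (SD, n = 4, 95% interval −0.10 to 0.69, limma, adjusted p = 0.374). They were positive on both arrays with the fasted liver in Cy5, at a mean of 0.64, and had a mean of −0.05 on the others. The mean was 0.12 without replicate 2 and 0.45 without replicate 4. Transthyretin (Ttr), which binds RBP4 in plasma, had a ratio of −0.14, and Stra6l, the RBP4 receptor gene of liver, one of −0.15, and neither was called.

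Further liver-secreted factors were compared with the members. Of 20 such genes 18 were kept, 0 were called higher and 1 lower, a count near the 3.78% of all kept probes called, and the median ratio was 0.11. The called gene was Tsku, which encodes the secreted protein tsukushi, with ratios of −0.55, −0.68, −0.74 and −0.72 and a mean of −0.67 ± 0.08 (SD, n = 4, limma, adjusted p = 0.00978). Tsku remained called without any one replicate, and its ratios lay closer together than those of any of the 9 hepatokines.

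For each called hepatokine the 3 other kept genes with the nearest ratios were named, by the Euclidean distance over the 4 arrays on the log2 scale. Those nearest to Fgf21 were Ppm1k, whose product activates the breakdown of branched-chain amino acids, at a distance of 0.432 and a mean ratio of 1.19, Arl4a at 0.507 and the Krüppel-like factor gene Klf9 at 0.554. Inhba had as nearest genes Dnajc3, which encodes a co-chaperone of the endoplasmic reticulum, at a distance of 0.198 and a mean ratio of −0.84, BC024137 at 0.243 and Pter at 0.275. All 6 of these genes were called in the direction of their hepatokine. Nearest to Inhbe were the interferon-response gene Gbp11 at a distance of 0.210 and a mean ratio of −0.74, F830014O18Rik at 0.396 and the liver transcription factor gene Foxa2 at 0.413, of which Foxa2 was not called (adjusted p = 0.152). Fst had more distant neighbours, the orphan nuclear receptor gene Nr4a1 at 0.619 with a mean ratio of 1.22, Slc25a33 at 0.711 and Wsb1 at 0.725, all called higher. These genes were picked for their likeness over 4 arrays, and their distances are a description.

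The calls differed in how far they held over 19 other settings. Inhba was called in 18 of them, Fgf21 in 16, Fst in 15 and Inhbe in 14. Lect2 was called in 2, and Inhbc, Gdf15, Fetub and Rbp4 were called in 0. None of the 9 mean ratios changed sign in any of the 19.

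**Figure D5:**
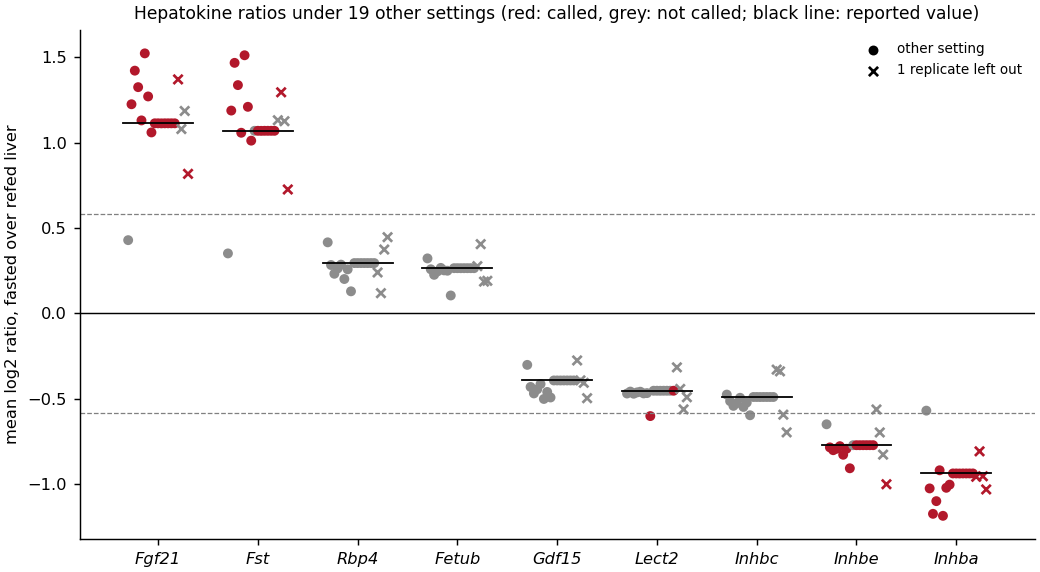
Mean log2 ratio of fasted over refed liver (vertical axis) for the 9 transcripts under 19 other settings of the processing, each a point or, where 1 replicate was left out, a cross; red stands for called and grey for not called, the black line is the reported value and dashed lines mark 1.5-fold. Fgf21 spans 0.43 to 1.52 and Inhba −1.19 to −0.57, and no point lies across 0 from its line.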

How the data were processed

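Gene expression of 4 livers per condition was measured on 4 two-colour Agilent whole mouse genome arrays, all on 1 slide and in 1 scan. The authors labelled each liver's RNA with Cy3 or Cy5 and deposited scanner files made with Feature Extraction (version 10.10.1.1 per the file headers), which hold the median intensity of each spot and of its local background. They also deposited a table of log2 ratios normalized by loess in limma, which was used as an alternative; its background correction is not given in the sources used here, and its columns have medians of −0.117 to 0.057.

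Here, in limma 3.58.1 (R 4.3.3), median intensities were corrected by normexp with an offset of 50, after leaving out spots whose local background exceeded 3 times the array's median in either channel (55 of 177588 spots), and normalized within arrays by loess, with control spots at weight 0 and flagged spots left out. Each array's ratio was turned to fasted over refed liver. Levels of single livers were taken after Aquantile between arrays. Probes well above background on all 4 arrays in at least 1 condition, with a value on all 4, were kept (19721 of 39429). The ratios were fitted with lmFit and eBayes without a dye term (two-sided), p-values were adjusted by Benjamini-Hochberg over the kept probes, and probes were called at an adjusted p under 0.10 and 1.5-fold, the limits that the study's methods give for SAM. A list gene was represented by its brightest kept probe. The named genes are the 9 members, up to 4 called genes of each list with the largest ratios, fixed receptors, binding partners and regulators, and the 3 genes nearest to each called member. Members and lists were chosen with earlier results of these data known. Probe coordinates are those of the files (mm9); their place within exons was not examined. Probes were named by RefSeq accession (26055), by symbol or synonym (4125) or as in the file (9249). Some genes of the lists are counted but not reported singly here. The steps were tested on simulated data. Alternatives covered background correction, source of the values, normalization, filters, flags, a dye term, separate channels, SAM with all 16 sign flips, the fold limit and leaving out each replicate.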

Additional observations from a re-analysis of the deposited data

Results flagged for a closer look

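Among 32 sets of 4 values examined, levels of the members in fasted and in refed livers, their ratios and the means of the lists, 2 had an extreme value whose gap to the nearest of the others, divided by the whole range, was above Dixon's 95% limit for 4 samples. Chance puts about 1 in 20 sets past this limit. The level of Inhba in the refed liver of replicate 2, at 9.17 beside 8.37 to 8.50 in the other refed livers, gave 0.833. The mean of the PPARA list on replicate 1, the lowest of the 4, gave 0.853.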

How the results depend on the processing

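No mean ratio of a member was reversed by any setting. With normexp fitted to all spots, 0 members were called higher and 0 lower, 5 probes of the array were called higher and 15 lower, and 0 list genes were called; the ratios were 0.43 for Fgf21, −0.65 for Inhbe, −0.57 for Inhba and 0.35 for Fst (adjusted p = 0.559 for each), and the estimated background SD on replicates 3 and 4 was 1075 to 4298, against 1.08 to 1.88 without the 55 spots. All kept probes called were 552 higher and 713 lower with plain subtraction, 685 and 904 with Agilent's processed signals and 935 and 1208 with no fold limit, which also called 17 list genes and Lect2 at −0.45. Median centring called 635 lower, with 26.6% of calls higher in place of 45.0%, and Lect2 at −0.60. With no filter on dim probes 1 member was called higher and 1 lower, beside 306 higher and 373 lower of all 39314 probes then tested. Inhbe at −0.77 (adjusted p = 0.135) and Fst at 1.07 (adjusted p = 0.112) were not called at this setting.

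Leaving out each replicate in turn gave 0 to 2 members called higher and 1 to 2 lower, 208 to 413 probes of the array higher and 256 to 525 lower, and 4 to 14 list genes. Replicate 3 gave the lowest counts of probes, 208 and 256. The ratio of Fgf21 ranged from 0.82 to 1.37, that of Inhbe from −1.002 to −0.56, that of Fst from 0.73 to 1.30 and that of Inhba from −1.03 to −0.81. The cause of these differences was not tested. Pairing on the array was removed by a fit of separate channels with no replicate block, which called the same 4 members (adjusted p = 0.0506 for Fgf21, 0.0527 for Inhbe, 0.0128 for Inhba and 0.0445 for Fst) and 322 probes higher and 394 lower.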
